A study of Mus musculus with 16 samples.

Results

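The comparison described here sets 4 hippocampal RNA libraries from 5xFAD mice against 4 from wild-type mice, 8 of the 16 libraries of the series, chosen by the genotype in their labels. The other 8 came from Dp16 mice, which carry a duplicated segment of mouse chromosome 16, and from 5xFAD-Dp16 mice, which carry both. All mice were 5 months old. The wild-type group, labelled C57BL/6J, held 2 males (replicates 1 and 3) and 2 females (replicates 2 and 4), and the 5xFAD group held 2 females (replicates 1 and 2) and 2 males (replicates 3 and 4). Neither group carried the duplication and the labels name no treatment. The labels give no strain for the 5xFAD mice and do not say whether the animals were littermates.

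5xFAD mice carry human transgenes, APP among them, with mutations found in familial Alzheimer disease, driven by the neuronal Thy1 promoter. They deposit amyloid early and heavily in the subiculum, hippocampus and deep cortex, so the model is one of overexpression in neurons and not of the disease at its usual onset. Microglia, the resident macrophages of the brain, gather at plaques. There the receptor Trem2 signals through the adaptor Tyrobp, and cells pass from a resting programme (P2ry12, Cx3cr1, Tmem119) to one of phagocytosis, lysosomal digestion and lipid handling (Cst7, Clec7a, Itgax). Astrocytes around plaques raise the filament protein Gfap.

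Of 16684 genes tested, 161 were higher in 5xFAD hippocampus and 1, Frem3, was lower (edgeR quasi-likelihood test, Benjamini-Hochberg adjusted p below 0.05, with sex in the model). The called genes make up 0.971% of those tested, the risen ones 0.965% and the fallen one 0.00599%. The 161 genes that rose did so by a median of 2.57-fold. Of them 7 rose at least 16-fold, 27 rose 4-fold to 16-fold, 79 rose 2-fold to 4-fold and 48 rose less, down to 1.34-fold. The median log2 fold change of all genes was 0.02, and 8922 of the 16684 had a positive one. At an unadjusted edgeR p below 0.05 stood 1477 genes, 997 higher and 480 lower. Levels are given as CPM, a gene's count relative to its library's total after TMM scaling, which corrects for differences in composition. In 158 of the 161 the lowest 5xFAD library lay above the highest wild-type library, a separation seen in 3.18% of all genes tested. Among all 162 called genes, Frem3 included, protein-coding genes numbered 152 and long non-coding RNAs 6. In 8 further fits, each lacking 1 of the 8 libraries, between 109 and 189 genes were called, and 97 of the 162 kept their call in every such fit. A fit of these 8 libraries alone called 76 genes, all higher, while DESeq2 called 279 (32 lower) and edgeR with no filter on low counts 398 (70 lower).

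**Figure D1:**
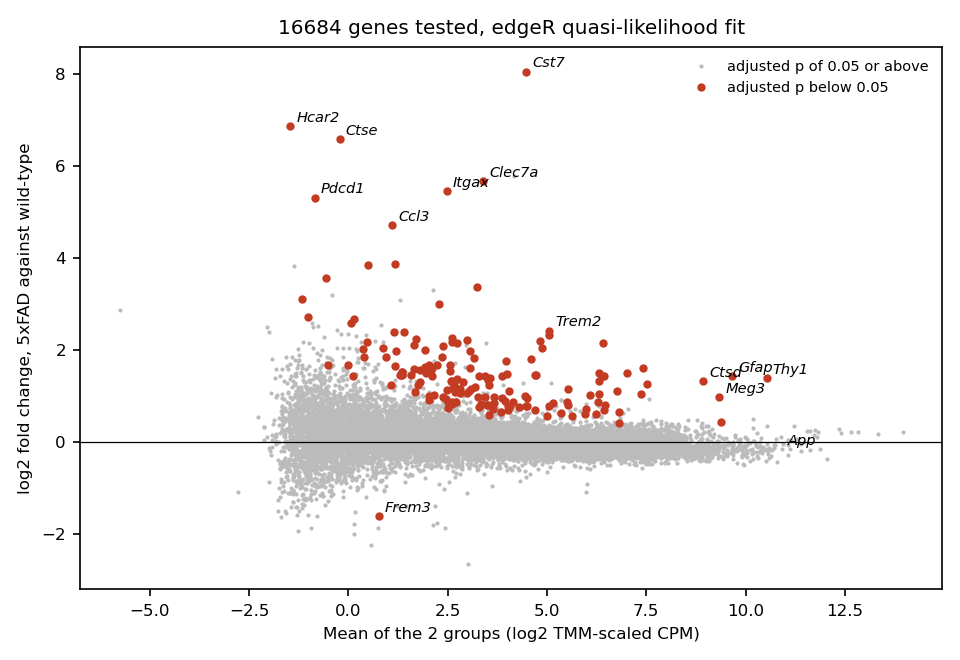
Log2 fold change of 5xFAD against wild-type (vertical axis) against the mean level of both groups in log2 TMM-scaled CPM (horizontal axis) for the 16684 genes tested. Red points are the 162 genes with an edgeR adjusted p below 0.05, of which 161 lie above 0 and Frem3 lies below.

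Depth ranged from 20340332 to 23533855 counts in wild-type libraries and from 15838097 to 19173691 in 5xFAD libraries, so every 5xFAD library was the shallower. Markers of neurons (Snap25, Syn1, Rbfox3), hippocampal excitatory cells (Prox1, Wfs1, Fibcd1, Camk2a, Slc17a7) and glia were present in every library, but at uneven levels. The hippocampal marker Iyd had 0.272 CPM in wild-type replicate 4 and 0.836 in 5xFAD replicate 2, against 2.23 to 4.87 in the others. Wild-type replicate 4 was also the lowest library for Prox1 (34 CPM), Fibcd1 (44.7), Slc17a7 and Camk2a, though not for Wfs1. Libraries also differed in genes of neighbouring brain regions, as seen in a score, the mean log2 difference of a gene list from its mean over the 16 libraries. The score of 10 genes found mainly in the midbrain, such as Th and Slc6a3, was 1.66 in wild-type replicate 4 and 4.08 in 5xFAD replicate 2 and between -0.934 and -0.579 in the rest except 5xFAD replicate 4, which had 0.883 and the highest score of 15 thalamus genes, 1.91. These 3 libraries had the lowest excitatory-neuron scores, -1.05, -0.577 and -0.585. Hypothalamic neuropeptide genes (Avp, Oxt, Pmch and Hcrt) were below the count filter and summed to 4594 counts in wild-type replicate 4 and 0 to 55 in each of the other 7 libraries. Cortical and striatal genes were also highest in wild-type replicate 4, with a score of 1.15 against at most 0.103 in the other 7, and their median log2 fold change was -0.303 with and 0.056 without this library. The comparison was repeated without such libraries of the whole series. A midbrain score above 1 removed wild-type replicate 4, 5xFAD replicate 2 and 5xFAD-Dp16 replicate 3 (2.42). That set wild-type replicates 1 to 3 against 5xFAD replicates 1, 3 and 4, and 142 genes were called (124 of the 162 among them). A thalamus score above 1 also removed 5xFAD replicate 4, which left 5xFAD replicates 1 and 3. Then 180 genes were called (137 of the 162 among them, a setting chosen after the data were seen).

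**Figure D2:**
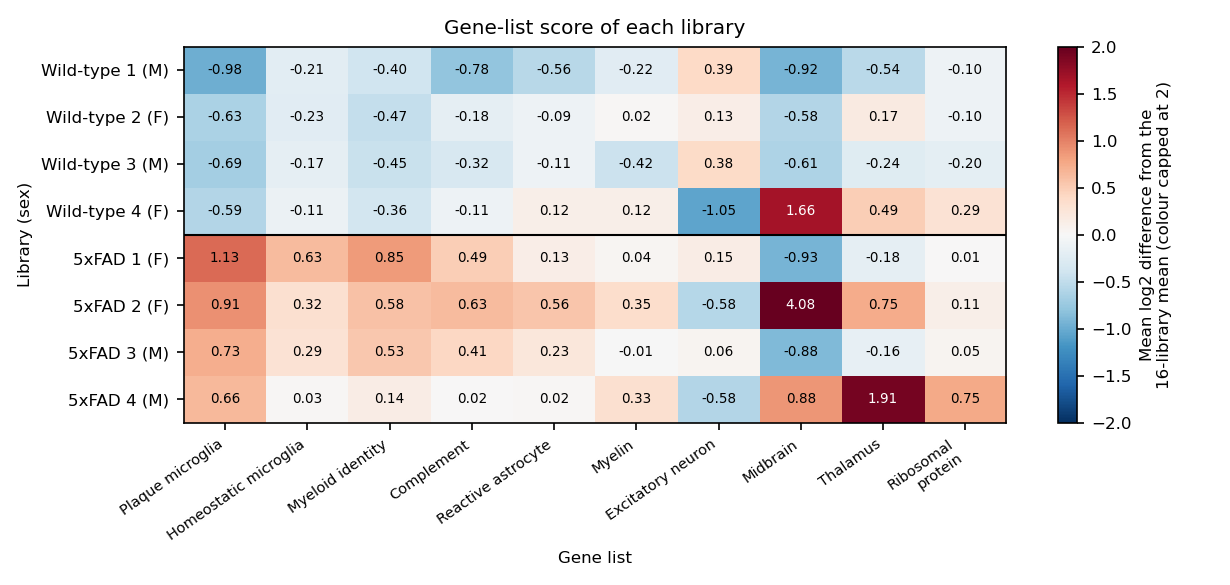
Scores of 10 gene lists (columns) in the 4 wild-type and 4 5xFAD libraries (rows, with sex), as mean log2 difference from the mean of the 16 libraries. The plaque microglia score lies between -0.98 and -0.587 in wild-type and between 0.655 and 1.13 in 5xFAD libraries, while the midbrain and thalamus scores pick out wild-type replicate 4 and 5xFAD replicates 2 and 4.

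The genes of the construct were examined first. Thy1 (chr9:44043384-44048579, GRCm38), a surface protein of neurons whose promoter drives the transgenes, had 916, 761, 807 and 774 CPM in wild-type replicates 1 to 4 and 2392, 2082, 2418 and 1639 in 5xFAD replicates 1 to 4. All 5xFAD libraries lay above all wild-type ones, and the rise was 1.39 ± 0.158 on the log2 scale (SE, edgeR adjusted p = 0.000101). Gene-level counts cannot separate endogenous Thy1 RNA from Thy1-derived sequence in the transgene transcripts. Mouse App, the amyloid precursor, had 2033 ± 236 CPM in wild-type and 1827 ± 122 in 5xFAD libraries (SD, n = 4 each), a log2 difference of -0.15 ± 0.105 (SE, adjusted p = 0.69). The tables count mouse gene models, so the human transgenes themselves were not measured. Among 18 genes of amyloid precursor processing, none passed the edgeR test and none was called by DESeq2 or limma-voom. An unadjusted edgeR p below 0.05 was seen for 2, 1 higher and 1 lower.

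Promoter sequences of genes that rose were read to show what stands before 6 members of the response. Each line gives 200 bases that end 1 base before the start of transcription, 5′ to 3′ on the gene's strand, from RefSeq (GRCm38.p6), with a searched motif in capitals. Ctss and B2m carry the interferon response element core GAAANNGAAA, Ifit3b carries it on the opposite strand at 2 places, C1qc carries the PU.1 core GAGGAAGT on the opposite strand, Clec7a carries the PU.1-IRF composite GGAANNGAAA on the opposite strand, and Ctsd carries TCACGTGA, the palindromic E-box of the lysosomal gene network.
Ctss, chr3:95526586-95526785, plus strand: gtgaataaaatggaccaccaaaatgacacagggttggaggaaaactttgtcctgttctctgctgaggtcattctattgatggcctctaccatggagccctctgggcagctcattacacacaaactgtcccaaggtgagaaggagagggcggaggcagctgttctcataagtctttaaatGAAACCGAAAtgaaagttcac
C1qc, chr4:136892915-136893114, minus strand: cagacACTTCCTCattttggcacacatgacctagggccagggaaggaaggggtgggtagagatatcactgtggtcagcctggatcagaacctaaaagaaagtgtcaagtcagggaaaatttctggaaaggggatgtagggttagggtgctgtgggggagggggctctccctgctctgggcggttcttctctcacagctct
Clec7a, chr6:129472780-129472979, minus strand: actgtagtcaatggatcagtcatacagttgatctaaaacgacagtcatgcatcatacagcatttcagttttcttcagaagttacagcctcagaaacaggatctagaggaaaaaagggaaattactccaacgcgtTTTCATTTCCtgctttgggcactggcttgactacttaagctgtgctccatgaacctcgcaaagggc
B2m, chr2:122147487-122147686, plus strand: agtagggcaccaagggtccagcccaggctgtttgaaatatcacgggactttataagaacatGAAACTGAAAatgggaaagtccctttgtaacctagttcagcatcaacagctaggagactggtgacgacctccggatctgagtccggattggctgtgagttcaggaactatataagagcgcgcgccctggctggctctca
Ifit3b, chr19:34607757-34607956, plus strand: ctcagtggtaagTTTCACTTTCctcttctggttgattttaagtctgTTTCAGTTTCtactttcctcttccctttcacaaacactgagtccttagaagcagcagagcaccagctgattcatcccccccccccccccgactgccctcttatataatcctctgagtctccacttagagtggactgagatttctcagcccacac
Ctsd, chr7:142387828-142388027, minus strand: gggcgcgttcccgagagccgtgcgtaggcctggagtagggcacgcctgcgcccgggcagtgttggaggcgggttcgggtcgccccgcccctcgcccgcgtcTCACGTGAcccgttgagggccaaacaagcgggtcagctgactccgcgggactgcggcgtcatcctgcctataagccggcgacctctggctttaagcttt

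Motifs were searched on both strands of windows from 250 bases before to 50 bases after each start, which RefSeq gave for 12232 of the genes tested and 116 of the 161 that rose. PU.1 is the lineage factor of macrophages, and GAGGAAGT stood in 13 of the 116 (11.2%) against 3.303% of all 12232. Ctss is among the 13: its copy, on the opposite strand, crosses the start of transcription and so is not marked in the line printed above. The composite GGAANNGAAA stood in 11 (9.483%) against 2.788%, and GAAANNGAAA stood in 11 (9.483%) against 3.54%. The latter pair differ in 1 base, so no site matches both on the same strand, while a PU.1 core can share bases with the composite. TCACGTGA stood in 4 of the 116 (3.448%), namely Ctsa, Ctsd, Runx1 and Siglech, against 1.978%. Of the 38 interferon-response genes with a window, 21 (55.3%) held GAAANNGAAA. These shares describe letters in the windows, and no binding was measured.

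Genes known from plaque-associated microglia rose together: 16 of 28 tested passed the test, none was called lower, and 27 of 28 had a positive log2 fold change. The median of the list was 0.906 on the log2 scale. Cst7 (chr2:150570415-150578944), an inhibitor of lysosomal cathepsins, had 0.146, 0.218, 0.267 and 0 CPM in wild-type replicates 1 to 4 and 67.5, 41.4, 40.5 and 28.8 in 5xFAD replicates 1 to 4. It was close to absent in every wild-type library and rose by 8.05 ± 0.442 on the log2 scale (SE, edgeR adjusted p = 1.16e-07). Clec7a (chr6:129461591-129472779), the beta-glucan receptor Dectin-1, had 0.195, 0.524, 0.668 and 0.181 CPM in wild-type against 26.8, 15.4, 15.3 and 25.1 in 5xFAD replicates, a rise of 5.68 ± 0.362 (adjusted p = 2.80e-07). Itgax, the integrin CD11c, had between 0.0974 and 0.453 CPM in wild-type and between 4.44 and 19 in 5xFAD libraries, a rise of 5.45 ± 0.429 (adjusted p = 1.57e-06). Its lowest 5xFAD value was in replicate 4 and its highest in replicate 1.

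The receptor pair at the head of this programme changed less steeply from a higher start. Trem2, the lipid-sensing receptor, had 9.59, 9.38, 9.89 and 12.6 CPM in wild-type and 74.4, 52.6, 47.3 and 49.9 in 5xFAD replicates 1 to 4. Its log2 rise was 2.43 ± 0.155 (SE, edgeR adjusted p = 2.80e-07). Tyrobp, its signalling adaptor, went from 11.1 ± 1.65 to 55.6 ± 10.9 CPM (SD, n = 4 each), a log2 rise of 2.33 ± 0.134 (adjusted p = 1.16e-07). Groups did not overlap for either gene, and wild-type replicate 4 was the highest wild-type library for both. The other risen members were Ccl6, Cd52, Ctsd, B2m, Ctsz, Lyz2, Cd68, Cd9, Ctsl, Igf1 and Ctsb. Of the 12 that did not pass, several are classical plaque genes, named here after their values were seen. Apoe, the main lipid carrier of glia, had 2759 ± 309 CPM in wild-type and 3247 ± 248 in 5xFAD libraries (adjusted p = 0.469), Lpl had a log2 fold change of 0.39 (adjusted p = 0.649) and Axl one of 0.17 (adjusted p = 0.688). Spp1, osteopontin, had 3.85, 6.11, 8.73 and 70 CPM in wild-type replicates 1 to 4 and 13.7, 59.4, 8.83 and 13.1 in 5xFAD replicates. Its high values stood in wild-type replicate 4 and 5xFAD replicate 2, the libraries with midbrain scores above 1.

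**Figure D3:**
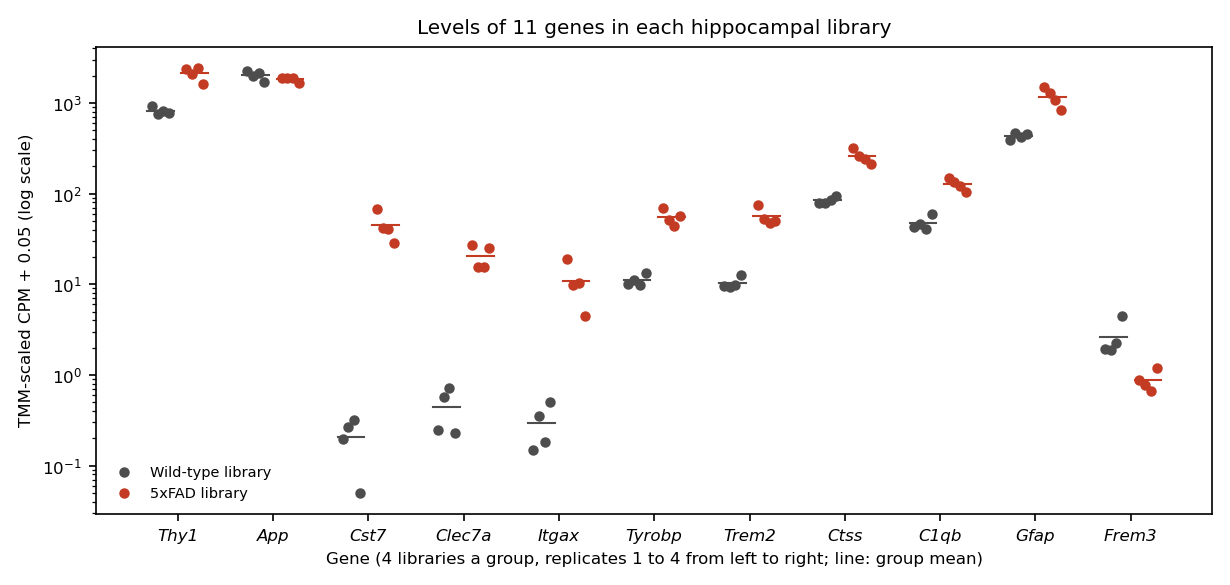
Levels of 11 genes in each of the 8 libraries, as TMM-scaled CPM plus 0.05 on a log axis (vertical), with wild-type libraries in grey, 5xFAD libraries in red and lines at group means. Groups are apart for Thy1, the microglial genes and Gfap, overlap for App, and are apart in the opposite direction for Frem3.

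Of 18 genes of the resting microglial state 6 rose, none was called lower, and 16 had positive values, with a median of 0.539. Among those that rose, Gpr34, a lysophosphatidylserine receptor, rose by 1.49 ± 0.173 on the log2 scale (SE, edgeR adjusted p = 0.000132) and the lectin Siglech by 0.90 ± 0.126 (adjusted p = 0.000872). Olfml3, Cx3cr1 and P2ry12 also passed, but less firmly: Olfml3 kept its call in 2 of the 8 fits that leave out 1 library (wild-type replicate 3 or 5xFAD replicate 4), and the fractalkine receptor Cx3cr1 and the purinergic receptor P2ry12 in 1, with adjusted p up to 0.115, 0.222 and 0.188. For Cx3cr1 and P2ry12 only the fit without 5xFAD replicate 4 kept the call. Tmem119 had 24.5 ± 1.25 CPM in wild-type and 28.6 ± 7.5 in 5xFAD libraries (SD, n = 4 each; edgeR adjusted p = 0.674) and Csf1r had 98.9 ± 11.2 and 165 ± 49.6 (adjusted p = 0.106). For both, 5xFAD replicate 1 was the highest library and replicate 4 the lowest of the 5xFAD group. The median of the list was 0.293 without 5xFAD replicate 1 and 0.699 without replicate 4.

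General myeloid genes rose as well, with 12 of 20 called and all 20 positive (median 0.883). Not all of these calls were firm. Those of Dock2, Cd37, Laptm5, Aif1 and Ncf1 held in only 4, 3, 2, 2 and 1 of the 8 fits without 1 library. Ly86, the partner of the receptor Cd180, rose by 1.82 ± 0.121 (SE, edgeR adjusted p = 3.51e-07), the phosphatase gene Ptpn6 by 1.62 ± 0.149 (adjusted p = 8.51e-06), the tetraspanin Cd53 by 1.2 ± 0.143 (adjusted p = 0.000173) and Ptprc, which encodes CD45, by 1.69 ± 0.213 (adjusted p = 0.000293). In these bulk samples, more cells of a type and more RNA per cell cannot be told apart. The summed CPM of the 20 genes was 226 to 253 in wild-type and 336 to 528 in 5xFAD libraries. Other blood and border cells gave different values. Of 11 perivascular macrophage genes none passed the edgeR, DESeq2 or limma-voom test, none had an unadjusted p below 0.05, and the median was -0.0017. The scavenger receptors Mrc1 and Cd163, chosen after their values were seen, had log2 fold changes of -0.06 and -0.05 (adjusted p = 0.98 and 0.979). Of 4 neutrophil genes, Csf3r, the receptor for granulocyte colony-stimulating factor that microglia also express, went from 3.88 ± 0.813 to 14.2 ± 5.95 CPM (adjusted p = 0.00259). S100a9 had 0.128, 0, 0.503 and 7.05 CPM in 5xFAD replicates 1 to 4, so that 1 library held nearly all of its signal. Of 8 lymphocyte genes, Ighm, the mu heavy chain, rose by 0.79 ± 0.144 (adjusted p = 0.0101; 0.0686 at most when 1 library was left out, with the call lost without 5xFAD replicate 1 or 3), while Cd79a and Cd4 stayed near or below 1 CPM on average.

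**Figure D4:**
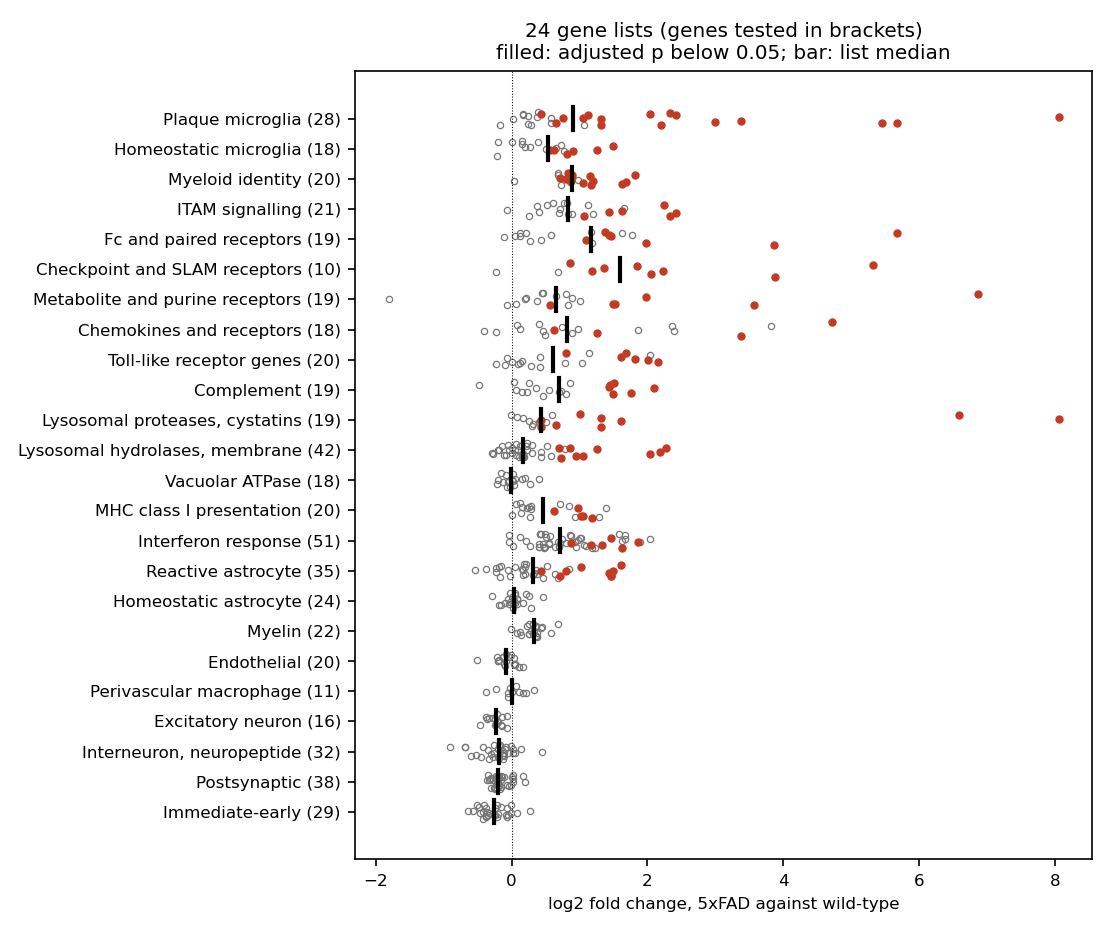
Log2 fold change of each gene in 24 lists (horizontal axis), filled red where the edgeR adjusted p was below 0.05, with a bar at the list median. Medians of the microglial, complement, protease and interferon lists lie to the right of 0, while those of the vacuolar ATPase, homeostatic astrocyte, endothelial and neuronal lists lie near it or to the left.

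Among 21 genes of ITAM signalling, the tyrosine-based pathway used by Trem2, 6 rose and 20 were positive (median 0.834). They were Tyrobp, Trem2, Ptpn6, Lat2, Abi3 and Fcer1g, the adaptor of Fc receptors, which rose by 1.43 ± 0.125 (SE, edgeR adjusted p = 4.56e-06). Abi3 lost its call without wild-type replicate 2 or 5xFAD replicate 3 (adjusted p up to 0.0801). The downstream kinase gene Syk and phospholipase gene Plcg2, chosen after their values were seen, had log2 fold changes of 0.53 (adjusted p = 0.377) and 0.26 (adjusted p = 0.663). Of 30 Fc and paired immune receptors 19 had enough counts to be tested, and 7 rose. The median of the tested genes was 1.17, but members nearly absent in wild-type passed the count filter only through amyloid libraries. Members too low to test included Clec4a1 with 27 and 18 counts and Cd300lf with 3 and 42 in all wild-type and all 5xFAD libraries. Fcgr3, an activating IgG receptor, went from 14.1 ± 1.73 to 38.6 ± 4.3 CPM (adjusted p = 3.51e-07), and Fcgr1 rose by 1.37 ± 0.16 (adjusted p = 0.000132). The inhibitory receptor Fcgr2b rose by 1.98 ± 0.257 (adjusted p = 0.000397). Cd22, a sialic acid receptor, had 0.535, 0.0873, 0.0445 and 0.0453 CPM in wild-type and 4.15, 3.57, 1.96 and 0.937 in 5xFAD replicates 1 to 4, a rise of 3.86 ± 0.653 (adjusted p = 0.00505).

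Of 20 checkpoint and SLAM-family receptors, better known from lymphocytes, 10 had enough counts to be tested and 8 rose. The median of the tested genes was 1.6, but members nearly absent in wild-type passed the count filter only through their level in amyloid libraries. Cd84 went from 2.78 ± 0.317 to 13 ± 1.33 CPM (SD, n = 4 each; edgeR adjusted p = 3.68e-06). Ly9 had between 0.0437 and 0.445 CPM in wild-type and between 1.78 and 7.22 in 5xFAD libraries, a log2 rise of 3.88 ± 0.522 (adjusted p = 0.00059). Lag3, which binds MHC class II, rose by 1.36 ± 0.222 (adjusted p = 0.00379). Pdcd1, which encodes PD-1, had 2 counts in all in the wild-type libraries and 77 in the 5xFAD libraries, a ratio of 47.2 per unit of library size with a 95% exact interval of 12.6 to 397 for counting error (adjusted p = 0.00192). Vsir, Havcr2, Slamf9 and Cd48 completed the risen set. Havcr2 lost its call without wild-type replicate 2 or 5xFAD replicate 3 (adjusted p up to 0.0671), Slamf9 kept it only without wild-type replicate 3 or 4 (up to 0.114 otherwise) and Cd48 only without wild-type replicate 4 or 5xFAD replicate 2 (up to 0.178). The other 10 members were too low to test, such as Slamf1 with 16 and 11 counts, Cd200r1 with 12 and 14 and Slamf7 with 10 and 32 counts in all wild-type and all 5xFAD libraries.

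Of 23 receptors for metabolites and purines 19 could be tested and 6 rose (median of the tested genes 0.659). The limit of the count filter given for the checkpoint list holds here too. The acid-sensing receptor Gpr65 rose from 0.101 ± 0.0936 to 1.26 ± 0.514 CPM (edgeR adjusted p = 0.0022). Hcar2, the receptor for niacin and beta-hydroxybutyrate, had 0 counts in the 4 wild-type libraries and 53 in the 5xFAD libraries, 8 to 19 in each. Against a floor of 3 counts over the whole wild-type group the ratio was 21.7 per unit of library size (adjusted p = 0.0074). This ratio makes no allowance for counting error in the 53 counts. Gpr84, a receptor for medium-chain fatty acids, rose by 1.99 ± 0.415 (adjusted p = 0.0276), with a call that held only in the fits without 5xFAD replicate 2 or 4 and an adjusted p up to 0.134 in the other 6. Of 19 integrin and adhesion genes 3 rose: Itgax, Cd9 and Itgb2, the beta chain of CD11c and other leukocyte integrins, which went from 6.98 ± 0.932 to 24.1 ± 7.75 CPM (adjusted p = 3.16e-06).

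Of 26 chemokines and their receptors 18 could be tested and 4 rose (median of the tested genes 0.814). The same limit of the count filter applies. Members too low to test included Ccr2 with 22 and 16 counts and Cxcr2 with 2 and 6 in all wild-type and all 5xFAD libraries. Ccl6 had 1.31, 1.14, 1.78 and 2.36 CPM in wild-type and 23.3, 13.9, 15.2 and 16.2 in 5xFAD replicates 1 to 4, a rise of 3.37 ± 0.233 (SE, edgeR adjusted p = 3.82e-07). The chemokine Ccl3 had 0, 0.393, 0.178 and 0.0453 CPM against 3.26, 5.79, 5.37 and 2.07, a rise of 4.71 ± 0.579 (adjusted p = 0.000223). Both groups were apart in both genes. The membrane-bound chemokine Cxcl16 passed with an adjusted p of 0.0221, but kept its call only in the fits without wild-type replicate 2 or 5xFAD replicate 4, with up to 0.0915 in the other 6. Outside the lists, and chosen after their values were seen, the neutrophil chemokine Cxcl5 (0.757 ± 0.639 to 3.71 ± 2.46 CPM, adjusted p = 0.0276) and the ligand of CD30, Tnfsf8 (0.0892 ± 0.0635 to 0.802 ± 0.252 CPM, adjusted p = 0.021), were also called. The 2 groups overlapped for Cxcl5. Cxcl5 kept its call only without wild-type replicate 2 or 5xFAD replicate 2 (up to 0.151 otherwise), and Tnfsf8 only without wild-type replicate 3 or 5xFAD replicate 1 (up to 0.134). Of 23 cytokine and growth factor genes 6 rose (median 0.564), among them Igf1 from 7.17 ± 0.39 to 12.2 ± 1.77 CPM (adjusted p = 0.00473) and the receptor genes Csf3r, Il21r, Il10ra, Tgfbr1 and Csf2ra. Il21r lost its call without wild-type replicate 2 or 4 (up to 0.0669). Il10ra kept it only without 5xFAD replicate 4 (up to 0.12 otherwise), Tgfbr1 only without wild-type replicate 3 or 5xFAD replicate 4 (up to 0.15) and Csf2ra only without wild-type replicate 4 or 5xFAD replicate 2 or 4 (up to 0.162). Classical inflammatory cytokines had few counts or none. Tnf and Il10 had 0 counts in all 8 libraries, which allows up to 3 counts in each group, Il6 had 3 in wild-type and 0 in 5xFAD libraries, and Il1b had 15 and 22, which is too few to be tested.

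Innate sensors rose in part. Of 20 Toll-like receptor genes 6 rose (median 0.604): Ly86, Cd180, Unc93b1, Cd14, Tlr2 and Tlr7. Cd14, a co-receptor for lipopolysaccharide, went from 2.12 ± 0.567 to 6.42 ± 1.28 CPM (edgeR adjusted p = 1.35e-05), and Tlr2, a receptor for lipoproteins, from 1.52 ± 0.818 to 6.04 ± 1.97 (adjusted p = 0.000184). Among 12 inflammasome genes, all with positive values (median 0.833), only Pycard, the ASC adaptor, passed, from 2.35 ± 0.613 to 6.31 ± 1.44 CPM (adjusted p = 0.00131), while Naip2 had an adjusted p of 0.0754 and Gsdmd one of 0.263. Of 19 complement genes 6 rose (median 0.696): the 3 C1q chains, C4b, and the receptor genes C3ar1 and Itgb2. The early components C1ra, C1s1 and C2 were not called. C1qa had 63.2, 63.6, 60.3 and 80.4 CPM in wild-type and 237, 204, 164 and 158 in 5xFAD replicates 1 to 4. Its log2 rise was 1.5 ± 0.111 (adjusted p = 7.94e-07), and C1qb and C1qc rose by 1.44 ± 0.0977 and 1.45 ± 0.119. C3ar1, the receptor for the C3a fragment, rose by 2.09 ± 0.288 (adjusted p = 0.000733) and C4b by 1.5 ± 0.263 (adjusted p = 0.00717). C4b reads may be shared with its near-identical neighbour C4a.

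Of 19 lysosomal proteases and cystatins 9 rose and 18 were positive (median 0.436). Ctss, the cathepsin of antigen processing, had 79.5, 78.5, 84.7 and 95.3 CPM in wild-type and 320, 259, 241 and 214 in 5xFAD replicates 1 to 4, a log2 rise of 1.6 ± 0.109 (SE, edgeR adjusted p = 3.51e-07). Ctsd, the main aspartic protease of lysosomes, went from 277 ± 30.7 to 695 ± 136 CPM (adjusted p = 2.59e-06) and Ctsz from 44.6 ± 3.34 to 113 ± 30.5 (adjusted p = 1.41e-05). Ctse, an aspartic protease of endosomes (chr1:131638306-131675505), had 1 count in 1 wild-type library and 119 counts over the 5xFAD libraries, a ratio of 146 with a 95% exact interval of 25.7 to 5810 for counting error. Ctsb, among the genes with the highest wild-type level, went from 567 ± 38.6 to 767 ± 54.9 CPM (adjusted p = 0.0192), a call kept in the fits lacking wild-type replicate 4 or 5xFAD replicate 2, 3 or 4 and lost in the rest (adjusted p up to 0.0901). Ctsa lost its call without 5xFAD replicate 3 (adjusted p = 0.0562).

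Among 42 lysosomal hydrolases and membrane proteins, 9 rose and the median was 0.169. They included the hexosaminidase subunit Hexa, the macrophage glycoprotein Cd68 (11.4 ± 2.4 to 47.5 ± 16.6 CPM, edgeR adjusted p = 3.48e-05), the divalent metal transporter Slc11a1 (2.20 ± 0.82 to 9.90 ± 3.15, adjusted p = 4.51e-06) and the cholesterol-binding protein Npc2. The proton pump that acidifies lysosomes gave no called gene: of 18 vacuolar ATPase subunits none passed edgeR, DESeq2 or limma-voom. An unadjusted edgeR p below 0.05 was seen for 2, 1 higher and 1 lower, and the median was -0.0116. Whether the lists differ from each other was not tested. Of 36 lipid-handling genes 3 rose, Npc2, Lpcat2 and Pld4 (median 0.151). Of 21 cholesterol synthesis genes none passed any of the 3 tests. At an unadjusted edgeR p below 0.05 stood 11 of them, all higher, and the median was 0.243.

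Per length of transcript, 6 of the risen genes with the highest wild-type CPM stood in the following order of deposited RPKM. In wild-type libraries Thy1 averaged 433, Ctsd 131, B2m 126, Gfap 107, Ctss 62.5 and Meg3 28 RPKM. In 5xFAD libraries the averages were 1162 for Thy1, 334 for Ctsd, 295 for Gfap, 267 for B2m, 195 for Ctss and 55.9 for Meg3. Gfap thus stood below B2m in wild-type and above it in 5xFAD libraries by these means, although the gap between them was not tested.

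Of 20 genes of antigen presentation by MHC class I 5 rose and all 20 were positive (median 0.46). B2m, the shared light chain, had 93.3, 111, 108 and 120 CPM in wild-type and 264, 231, 225 and 177 in 5xFAD replicates 1 to 4, a log2 rise of 1.05 ± 0.101 (SE, edgeR adjusted p = 1.41e-05). The heavy chain H2-D1 rose by 1.02 ± 0.124 (adjusted p = 0.00021) and H2-T23 by 0.98 ± 0.177 (adjusted p = 0.00856). H2-K1 (adjusted p = 0.0095) and the immunoproteasome subunit Psmb8 (adjusted p = 0.0161) lost their calls in some fits without 1 library, H2-K1 without wild-type replicate 1 or 5xFAD replicate 3 (up to 0.0562) and Psmb8 without wild-type replicate 1, 2 or 3 (up to 0.0787). Class I heavy chains are near-identical, so reads may be divided between them. Of 11 class II genes only H2-Ob passed (adjusted p = 0.0415, and up to 0.164 in fits without 1 library, the call holding only without wild-type replicate 3 or 5xFAD replicate 4), and the median of 0.784 dropped to 0.247 without 5xFAD replicate 3. The costimulatory gene Cd86 had an adjusted p of 0.0524.

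Interferon-response genes were nearly all positive, but few passed the test. Of 51 tested 6 passed, 49 were positive, the median was 0.715, and 27 had every 5xFAD library above every wild-type one, where 3.18% of all genes did. The 6 were Lgals3bp, Trim30a, Ifit3b, Slfn2, Parp9 and Slfn8, with edgeR adjusted p between 0.0155 and 0.0278. Ifit3b, an interferon-induced RNA-binding protein whose promoter is printed above, went from 3.42 ± 1.07 to 8.56 ± 1.65 CPM (log2 rise 1.33 ± 0.265 SE, adjusted p = 0.0198). Each of these calls ended in at least 4 of the 8 fits without 1 library, with adjusted p up to 0.122 across the 6. Wild-type replicates 1 and 2 and 5xFAD replicate 3 were among the libraries that Lgals3bp, Trim30a and Ifit3b each needed. The transcription factor gene Irf7, chosen after its values were seen, went from 2.37 ± 1.07 to 5.04 ± 1.01 (adjusted p = 0.0923). DESeq2 called 14 of the 51 and limma-voom 6. Ifit3b and the Slfn genes lie in families of near-identical copies and their counts are uncertain for that reason.

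Of 32 myeloid transcription factor genes 5 rose (median 0.102). Irf8, required for microglial development, had 5.57 to 8.28 CPM in wild-type and 12.3 to 22.7 CPM in 5xFAD libraries, a log2 rise of 1.39 ± 0.187 (SE, edgeR adjusted p = 0.000568). Spi1, which encodes PU.1, went from 4.55 ± 0.788 to 9.58 ± 2.27 CPM (adjusted p = 0.00192), and Runx1 from 1.08 ± 0.271 to 3.40 ± 0.641 (adjusted p = 0.00274). Ikzf1 and Irf5 also passed, but Ikzf1 not without wild-type replicate 2 (adjusted p = 0.0529), and Irf5 in single-library leave-outs only without 5xFAD replicate 2 or 4 (up to 0.133 otherwise). Of 18 genes of the NADPH oxidase and iron handling 7 rose (median 0.643). They included the oxidase subunits Cyba (5.87 ± 0.86 to 15.9 ± 2.39 CPM, adjusted p = 0.000101), Ncf1 and Cybb. Ncf1 kept its call only without 5xFAD replicate 4 (up to 0.175 otherwise), and Cybb only without wild-type replicate 3 or 5xFAD replicate 2 or 4 (up to 0.169). Proliferation genes did not pass: of 27, none was called by edgeR, DESeq2 or limma-voom, and 8 had an unadjusted edgeR p below 0.05 (6 higher and 2 lower). Mki67 had 0.915 ± 0.511 CPM in wild-type and 2.19 ± 0.577 in 5xFAD libraries (edgeR adjusted p = 0.39).

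Risen genes that belong to no list numbered 49. The 8 with the smallest p were Mpeg1, Samsn1, Plek, Lair1, Capg, Tbxas1, AU020206 and Anxa3. Mpeg1, the pore-forming perforin-2 of macrophages, had 29.3, 30.5, 30.7 and 34.2 CPM in wild-type and 206, 133, 126 and 96.3 in 5xFAD replicates 1 to 4, a log2 rise of 2.15 ± 0.155 (SE, edgeR adjusted p = 6.47e-07). Samsn1, an adaptor of immune receptor signalling, went from 1.17 ± 0.166 to 5.07 ± 0.81 CPM (adjusted p = 8.51e-06), and Plek, a target of protein kinase C in blood cells, from 13.7 ± 0.461 to 38.3 ± 9.87 (adjusted p = 1.30e-05). Tbxas1, thromboxane synthase, rose by 1.53 ± 0.209 (adjusted p = 0.000718).

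Long non-coding RNAs made up 6 of the risen genes. The smallest p among them belonged to AU020206, with 2.34, 2.36, 1.78 and 2.22 CPM in wild-type and 13, 6.96, 7.66 and 4.44 in 5xFAD replicates 1 to 4. It rose by 1.85 ± 0.258 on the log2 scale (SE, edgeR adjusted p = 0.000834), with no overlap, and kept its call in all 8 fits without 1 library. Meg3, a maternally expressed imprinted RNA (chr12:109541001-109571726), had 394, 382, 366 and 593 CPM in wild-type and 860, 927, 807 and 824 in 5xFAD replicates 1 to 4. The groups did not overlap, and the log2 rise was 0.99 ± 0.209 (SE, edgeR adjusted p = 0.031). Its call held only in the fit without wild-type replicate 4, the library apart from its group, and in the other 7 such fits the adjusted p reached 0.137. Further RNAs, chosen after their values were seen, were Mirg of the same imprinted cluster (adjusted p = 0.0407), Miat (64.3 ± 8.49 to 112 ± 15.2 CPM, adjusted p = 0.00446), Neat1, the scaffold of nuclear paraspeckles (24.3 ± 4.15 to 41.6 ± 3.24 CPM, adjusted p = 0.0261), and Mir124a-1hg, a host transcript of a neuronal microRNA (adjusted p = 0.0239). Miat kept its call in all 8 fits without 1 library. Mirg kept it only without wild-type replicate 4 (up to 0.188 otherwise), Neat1 only without wild-type replicate 4 or 5xFAD replicate 2 (up to 0.117), and Mir124a-1hg only without wild-type replicate 3 or 5xFAD replicate 2 or 4 (up to 0.122). Rian, which lies between Meg3 and Mirg in the cluster, differed by 0.23 ± 0.222 (adjusted p = 0.767). How reads of nuclear RNA depend on the quality of each RNA sample was not tested.

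Among astrocyte genes Gfap rose, while none of the homeostatic list was called. Gfap (chr11:102887336-102900912), the intermediate filament of reactive astrocytes, had 387, 463, 422 and 459 CPM in wild-type and 1491, 1292, 1081 and 841 in 5xFAD replicates 1 to 4. The lowest 5xFAD library was well above the highest wild-type one, and the log2 rise was 1.43 ± 0.143 (SE, edgeR adjusted p = 2.32e-05). Of 35 reactive astrocyte genes 9 rose (median 0.313), but Cd14, H2-D1, C4b, Ctsb and S100a6 among them are also made by microglia or other cells. Aspg rose from 1.58 ± 0.504 to 4.35 ± 1.21 CPM (adjusted p = 0.00643) and Osmr, the oncostatin M receptor, passed with 0.0407. Osmr kept its call only without wild-type replicate 3 or 5xFAD replicate 4 (adjusted p up to 0.154 otherwise), and S100a6 only without wild-type replicate 4 or 5xFAD replicate 2 (up to 0.171). Vim and Serpina3n, chosen after their values were seen, had adjusted p of 0.711 and 0.437, with 27.4 CPM of Serpina3n in wild-type replicate 4 and 43 in 5xFAD replicate 4, the lowest of each group. Of 24 homeostatic astrocyte genes none passed any of the 3 tests, 1 had an unadjusted p below 0.05, and the median was 0.0384. Aqp4, the water channel of astrocyte endfeet, had 195 ± 42.9 and 271 ± 73.8 CPM (adjusted p = 0.342).

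Myelin genes had a positive median and no call. Of 22 genes 21 were positive with a median of 0.326, none was called by edgeR, DESeq2 or limma-voom, and 6 had an unadjusted p below 0.05. Trf, which encodes transferrin, had 410 ± 87.1 CPM in wild-type and 543 ± 65.1 in 5xFAD libraries (edgeR adjusted p = 0.34). The scores of the list were highest in 5xFAD replicates 2 and 4 (0.352 and 0.325) and, within the wild-type group, in replicate 4 (0.118), the 3 libraries high in genes of neighbouring regions, whose part in this was not tested. Among 21 genes reported in oligodendrocytes of amyloid mice 7 rose, Ctsd, B2m, Cd9, H2-D1, C4b, H2-K1 and Ctsb, which are shared with the microglial, class I, complement or lysosomal lists. Endothelial genes had a median of -0.0818, with 0 of 20 called by the 3 tests and 1 at an unadjusted p below 0.05.

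Lists of neuronal genes had negative medians, and no member of them was called by edgeR except Frem3 of the dentate gyrus list. All 16 excitatory-neuron genes were negative, with a median of -0.226, 0 called by edgeR, DESeq2 or limma-voom and 0 at an unadjusted p below 0.05. Postsynaptic genes had a median of -0.203 over 38 genes, again with none called by the 3 tools and none under an unadjusted p of 0.05. Dlg4, the scaffold PSD-95, had 1074 ± 208 CPM in wild-type and 849 ± 190 in 5xFAD libraries (edgeR adjusted p = 0.612). Within the sexes the medians of the excitatory list were 0.143 in females and -0.606 in males. Among females, wild-type replicate 4 (score -1.05) and 5xFAD replicate 2 (-0.577) were low in these genes. Among males, 5xFAD replicate 4 (-0.585) was. Immediate-early genes, markers of recent neuronal activity, had a median of -0.267 over 29 genes, with none called and 1 at an unadjusted p below 0.05 (0 by DESeq2 and limma-voom).

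Interneuron and neuropeptide genes had a median of -0.184 over 32 genes, and of -0.121 without wild-type replicate 4. That library had the highest score of the list, 0.442, against -0.0833 to 0.0951 in the other wild-type and -0.178 to -0.0689 in the 5xFAD libraries. None was called by edgeR or limma-voom, 1 was by DESeq2, and 5 had an unadjusted p below 0.05, all lower in 5xFAD. Sst, somatostatin, had 299, 240, 228 and 310 CPM in wild-type and 217, 161, 217 and 190 in 5xFAD replicates 1 to 4, so the groups did not overlap (log2 difference -0.46 ± 0.128 SE, edgeR adjusted p = 0.157). Lhx6, the transcription factor of these cells, differed by -0.68 ± 0.224 (adjusted p = 0.292) and the opioid precursor gene Pdyn by -0.59 ± 0.207 (adjusted p = 0.342), with 31.3 CPM of Pdyn in wild-type replicate 4 and 13.5 to 16.4 CPM in wild-type replicates 1 to 3. Groups that did not overlap with 5xFAD lower made up 1.35% of all genes tested.

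Frem3 (chr8:80611080-80695356), an extracellular matrix protein, was the single gene called lower, and was not called by limma-voom, in the fit of the 8 libraries alone or without the libraries high in midbrain genes. It had 1.90, 1.83, 2.18 and 4.39 CPM in wild-type and 0.831, 0.724, 0.615 and 1.13 in 5xFAD replicates 1 to 4. The groups were apart, and it fell by 1.6 on the log2 scale (SE 0.325, edgeR adjusted p = 0.0227). The highest wild-type value came from replicate 4, and of the 8 single-library leave-outs only those of wild-type replicate 1, wild-type replicate 2 and 5xFAD replicate 4 kept the call, the rest reaching an adjusted p of 0.0988. Next in order of p came Nanos1 and Gm13889 (both adjusted p = 0.0754), Nrarp (0.0861), B4galt3 (0.0887), Bmyc (0.104), Kirrel2 (0.106) and Eri3 (0.108). Nrarp, a target and inhibitor of Notch signalling, had 26.2 ± 6.29 CPM in wild-type and 17.1 ± 3.02 in 5xFAD libraries. Of all genes tested 480 were lower at an unadjusted p below 0.05, against 997 higher.

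Genes near human Alzheimer risk loci were a mixed list. Of 43 tested 6 rose, Trem2, Ctsz, Ctsh, Spi1, Abi3 and Ctsb, which are also in the microglial, ITAM signalling, lysosomal or transcription factor lists. The median of the 43 was 0.113, and 28 were positive. Cytosolic ribosomal protein genes were positive in all 55 cases (median 0.268) with none called by edgeR, DESeq2 or limma-voom and 4 at an unadjusted p below 0.05. Their score was highest in 5xFAD replicate 4, at 0.75, and the next library of the 8 had 0.289.

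Whether the effect differed between the sexes was tested with an interaction term, on 2 libraries a sex and genotype. No gene passed (edgeR, lowest adjusted p = 0.331), although 2470 had an unadjusted p below 0.05 and DESeq2 called 1. Within females 62 genes were called (0.372% of those tested) and within males 42 (0.252%), with 33 in common, 53.2% of the former and 78.6% of the latter. In fits of 1 sex alone the order was the reverse, with 23 genes in females and 44 in males. These fits used every library of that sex in the series. All 5xFAD-Dp16 libraries are male, so the male fit held more libraries, and its count cannot be set against the female one. Of the 161 risen genes 94 had the larger change in females, and the medians of the called genes were 1.43 in females and 1.23 in males. The smallest interaction p among called genes belonged to Fcgr2b, the inhibitory IgG receptor, with a female minus male difference of 1.44 ± 0.343 (SE, unadjusted p = 0.00154). Over all genes the smallest belonged to Serpinb1b, Nudt7, Ttc39a, Bahcc1 and Ccdc33, each with an adjusted p of 0.331. Each sex holds libraries high in genes of neighbouring regions (wild-type replicate 4 and 5xFAD replicate 2 in females, 5xFAD replicate 4 in males). The count of 2470 genes at an unadjusted edgeR p below 0.05 for the sex difference moved with the setting. It was 852 with midbrain and thalamus scores in the model, a setting chosen after the data were seen. The added terms also leave less information for estimating the spread. Without 1 library the count ranged from 811 (5xFAD replicate 4 left out) to 4618 (5xFAD replicate 3 left out). The part of tissue content in this was not tested.

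The same contrast on the duplicated background used separate libraries, 5xFAD-Dp16 against Dp16, with 4 males in the former and 2 of each sex in the latter. It called 141 genes (0.845%), 138 higher (0.827%) and 3 lower. Genes called in both comparisons numbered 100, which is 61.7% of the 162 and 70.9% of the 141, and 161 of the 162 had the same sign in both. The median log2 fold change of the 162, which were selected in the first comparison, was 1.34 there and 1.12 on the duplicated background. The test of the difference called 0 genes with edgeR (332 at an unadjusted p below 0.05, lowest adjusted p = 1.00) and 5 with DESeq2. Frem3 had the opposite sign, 0.30 against -1.6 (interaction unadjusted p = 0.000822). Tlr7, the endosomal sensor of single-stranded RNA, rose by 1.68 without and by 0.42 with the duplication (unadjusted p = 0.00215), and Cfap100, Rbm41 and Rhbdl2 complete the 5 genes with the smallest p of the difference.

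**Figure D5:**
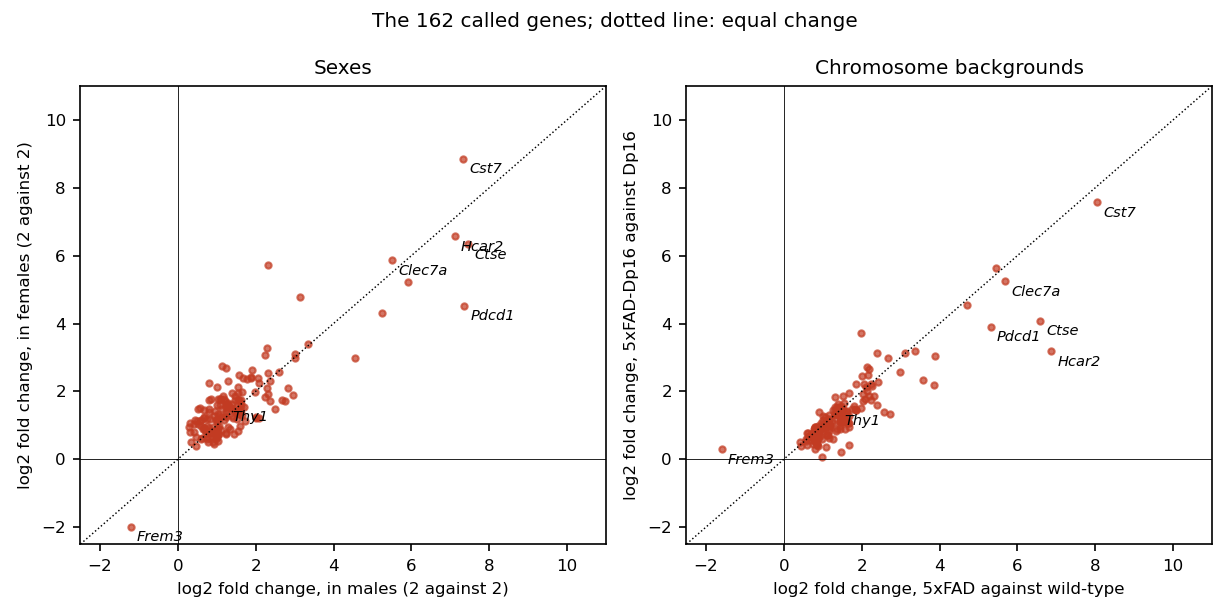
Log2 fold changes of the 162 called genes in females against males (left, 2 libraries a group and sex) and in 5xFAD-Dp16 against Dp16 compared with 5xFAD against wild-type (right), with a dotted line at equal change. Points lie above 0 on both axes in both panels except Frem3, which is below 0 in both sexes and has opposite signs on the chromosome backgrounds.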

How the data were processed

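Poly-A RNA of mouse hippocampus was sequenced as paired reads of 150 bases from strand-specific libraries, per the labels' protocols. The submitters' processing notes name HISAT2 2.1.0, SAMtools 1.5, HTSeq 0.6.1 and the build GRCm38. For the counting, no source used here gives the strand setting, and overlapping or antisense genes may share reads. The authors deposited whole-number counts per gene, used for all tests, and RPKM values, used only for levels per length.

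Groups came from the genotype labels. Counts of all 16 libraries were fitted with edgeR 4.0.16 (quasi-likelihood, robust, TMM scaling, filterByExpr by genotype, terms for genotype and sex), so the 4 genotypes share 1 estimate of the spread. Benjamini-Hochberg adjustment ran over all 16684 genes tested of 55385, with a threshold of 0.05, and SE is the absolute log2 fold change over the square root of F. Group levels are TMM-scaled CPM with SD over 4 libraries. Depth was 15838097 to 23533855 counts a library. Nothing in the labels says that the samples were single animals, and p-values rest on how far the libraries of a group spread. Count intervals and floors cover counting error only.

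The members of the comparison and the 58 gene lists were chosen with earlier results of these data known, so no list is independent evidence of its direction. List medians and counts of called genes cover only members that passed the count filter. Named genes were the construct's genes, the 10 largest rises, smallest p and highest wild-type levels among called genes of at least 1 CPM without overlap, the called gene that fell with the lowest-p lower genes, up to 4 smallest-p members of each list, 8 in no list, and 5 for each difference of effects. Some genes that the rule selects are not reported here. Other genes named individually were chosen after their values were seen, and where a list's called members are enumerated the enumeration is complete or introduced as partial. Coordinates are from GENCODE M21 (55144 of 55385 identifiers matched), and promoters from RefSeq GRCm38.p6. On simulated counts with 200 changed genes among 16684, the 5xFAD against wild-type test recovered 29.9% of 1.5-fold, 67.2% of 2-fold and 90.9% of 4-fold changes and called 0.0667% of unchanged genes. Alternatives used DESeq2 1.42.0, limma-voom (limma 3.58.1), other scaling, filters and designs, subsets by sex, and each library left out, with R 4.3.3.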

Additional observations from a re-analysis of the deposited data

Results flagged for a closer look

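Among 279 sets of 4 libraries of 1 group checked for the genes named by rule, 16 held a library whose gap to the nearest other exceeded Dixon's 95% limit, 12 on the high side and 4 on the low side. Chance gives about 1 in 20 sets. Wild-type replicate 4 accounts for 6 of them: Trem2 at 12.6 CPM (other wild-type libraries 9.38 to 9.89), C1qa at 80.4 (60.3 to 63.5), Pycard at 3.26 (1.95 to 2.14), Meg3 at 593 (366 to 394), Pdyn at 31.3 (13.5 to 16.4) and Frem3 at 4.39 (1.83 to 2.18). For the first 4 this library lay toward the 5xFAD values, and for Frem3 and Pdyn away from them. Wild-type replicate 1 was apart for Cd22 at 0.535 CPM (others 0.0445 to 0.0873), for Lag3 at 7.06 (6.15 to 6.28) and, on the low side, for H2-K1 at 25.6 (33.9 to 35.5). Wild-type replicate 2 held the only wild-type count of Ctse, 0.0436 CPM, and wild-type replicate 3 was low for Ccna2 at 0.223 (0.438 to 0.48). In the 5xFAD group, replicate 4 was low for App at 1650 CPM (others 1870 to 1900) and for H2-K1 at 37.9 (52.8 to 54.8) and high for S100a9 at 7.05 (0 to 0.503). Replicate 2 held 8.47 CPM of Pax5 (0 to 0.615), and replicate 1 held 17 CPM of Pdyn (10.8 to 11.4).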

How the results depend on the processing

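No gene called in the main comparison changed direction under any of the 20 alternatives, and 18 of the 162 kept their call in all of them. The count of 162 (161 higher) became 279 with DESeq2 (247 higher, 32 lower, all 162 among them), 398 with no filter on low counts (328 higher, 70 lower, on 30883 genes), 76 with only the wild-type and 5xFAD libraries in the fit (0 lower), 44 in males and 23 in females. The male fit held more libraries than the female one, since all 5xFAD-Dp16 libraries are male. Leaving out each library in turn gave 109 to 189. The most calls were lost without wild-type replicate 2 (56) and the fewest without 5xFAD replicate 4 (16). RLE scaling gave 154, limma-voom 169 (0 lower), no sex term 159 and the midbrain score as a covariate 174. For the female minus male difference, no low-count filter gave 872 calls, DESeq2 gave 1, and leave-outs gave 0 to 1. For the effect with minus without Dp16, no low-count filter gave 128 calls, DESeq2 gave 5, and every leave-out gave 0. Replicate numbers were not treated as pairs in the main fit. Deviations of same-numbered libraries correlated at 0.184, -0.278, 0.354 and 0.274 across genes, and the same number was the best match for 2 wild-type libraries. Whether such libraries shared a batch or litter was not tested. The fit with a replicate block called 162 genes (160 higher), 143 of them in common. With 4 libraries a group and 15838097 counts in the shallowest, 67.2% of simulated 2-fold changes were recovered, so smaller changes may be missed.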

Other observations

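Gene groups outside the comparisons above gave few differences. Of 24 genes of the unfolded protein and heat-shock responses none was called (median log2 fold change -0.0354, 1 at an unadjusted edgeR p below 0.05, 0 by DESeq2 and limma-voom). Of 24 glycolysis genes none was called (median -0.0554, 5 at an unadjusted edgeR p below 0.05, 4 higher and 1 lower). Of 14 oligodendrocyte precursor genes none was called (median -0.0572, 1 at an unadjusted p below 0.05). For both lists DESeq2 and limma-voom again called 0. Nuclear respiratory chain genes had a median of 0.103 over 38 genes with none called by the 3 tools and none at an unadjusted p below 0.05. Choroid plexus genes varied widely among libraries: their summed level ranged from 279 to 9360 CPM in wild-type and from 374 to 7980 CPM in 5xFAD libraries. The list median of 0.0146 joined opposite values, -1.61 in females and 0.794 in males (2 libraries a sex and genotype). On the duplicated background the median was 1.34. Scores of the list were lowest in wild-type replicates 1 and 4 (-2.44 and -2.59) and 5xFAD replicate 2 (-2.24).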
